A study of Homo sapiens with 6 samples.

Results

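The genes of DNA replication and nucleotide synthesis examined here were 49 named genes of origin recognition, origin licensing, the replicative helicase, the replicative polymerases, the sliding clamp and its loader, Okazaki fragment joining, single-strand DNA binding, deoxynucleotide supply and replication-coupled chromatin assembly. They were taken by symbol from a table of 30230 genes, and each of the 49 symbols had a row there. The RNA came from A549 cells, an established human lung adenocarcinoma line, with 3 libraries from control cells (NC) and 3 from cells silenced for FSCN1 (siFSCN1), which encodes fascin, a protein that bundles actin. The control carried a scrambled siRNA according to the study's methods and a control plasmid according to the sample labels, the silenced cells carried the siRNA that the study's text names for these libraries, and libraries with another FSCN1 siRNA or a rescue were not analysed here. Both groups were A549 cells with no further treatment on the labels. The study calls the libraries biological replicates, but no label ties them to separate cultures, so the p-values measure the spread between these libraries.

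Replication origins are bound by the origin recognition complex (ORC), onto which CDC6 and CDT1 load the ring of MCM2 to MCM7, the core of the replicative helicase. CDC45 and the GINS complex join the ring when an origin fires, polymerase alpha with primase starts each strand, polymerases epsilon and delta extend them on the PCNA clamp, and ribonucleotide reductase, thymidylate synthase and thymidine kinase supply the precursors. In proliferating cells many of these genes are transcribed in late G1 and S phase, when E2F factors act on their promoters.

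The promoters of a few members are shown because the E2F letters in them were shared by many members that otherwise differ in role. In the RefSeq promoter table (GRCh38.p14, 250 bases before to 50 bases after a start site), 43 of the 49 members had an entry. RPA2, RPA3, POLD3, MCM4, MCM5 and GINS4 had none. The letters TTTGGCGC, TTTCGCGC, TTTCCCGC or TTTGCCGC, searched on both strands, occurred in 21 of the 43 members (48.8%), in 742 of 11451 genes tested for expression that had a promoter entry (6.48%) and in 3.31% of all 35116 promoters in the table. A gene with several promoter entries was counted if any of them held a match. Capitals below mark these letters, and overlapping matches run together.
MCM6, chr2:135876394-135876693, minus strand: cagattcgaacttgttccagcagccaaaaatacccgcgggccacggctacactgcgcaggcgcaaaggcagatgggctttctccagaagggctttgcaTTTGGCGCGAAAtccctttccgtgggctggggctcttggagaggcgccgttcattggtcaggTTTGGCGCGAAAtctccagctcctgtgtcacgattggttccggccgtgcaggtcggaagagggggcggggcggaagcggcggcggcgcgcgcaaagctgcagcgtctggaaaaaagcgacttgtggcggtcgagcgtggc
MCM7, chr7:100101348-100101647, minus strand: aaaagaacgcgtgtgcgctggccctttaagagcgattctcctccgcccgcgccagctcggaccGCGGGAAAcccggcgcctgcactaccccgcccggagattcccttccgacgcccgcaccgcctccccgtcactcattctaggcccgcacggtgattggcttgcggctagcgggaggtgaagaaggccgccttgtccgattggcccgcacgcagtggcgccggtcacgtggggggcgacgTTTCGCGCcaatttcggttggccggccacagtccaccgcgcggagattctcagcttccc
CDC6, chr17:40287629-40287928, plus strand: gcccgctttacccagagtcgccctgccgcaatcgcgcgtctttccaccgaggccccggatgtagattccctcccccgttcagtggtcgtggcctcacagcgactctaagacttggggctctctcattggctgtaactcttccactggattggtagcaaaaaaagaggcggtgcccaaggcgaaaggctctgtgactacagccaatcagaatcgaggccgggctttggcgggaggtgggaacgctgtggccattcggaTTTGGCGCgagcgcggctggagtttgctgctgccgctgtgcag
POLE, chr12:132687293-132687592, minus strand: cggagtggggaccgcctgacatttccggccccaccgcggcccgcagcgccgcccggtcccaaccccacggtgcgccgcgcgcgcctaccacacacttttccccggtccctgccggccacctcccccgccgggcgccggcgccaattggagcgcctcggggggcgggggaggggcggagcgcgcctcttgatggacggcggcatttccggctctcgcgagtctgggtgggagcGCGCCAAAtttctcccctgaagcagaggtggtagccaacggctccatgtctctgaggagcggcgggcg

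The MCM6 promoter held the 12 letters TTTGGCGCGAAA in 2 places, beginning 152 and 90 bases before the start site, each of which contains a match on either strand. In the MCM7 promoter shown the matches began 187 and 9 bases before its start site. The other MCM7 entries held none. In CDC6 the match began 7 bases after the start site. POLE, a member that was not lower after silencing, held a match beginning 18 bases before its start site. Other letters were also counted. CCAAT, the core bound by NF-Y, occurred in 60.5% of the 43 members and 42.5% of tested genes, GGGCGG (GC box) in 74.4% and 75.5%, and TTTGAA, the core of the CHR element of genes expressed late in the cell cycle, in 4.65% and 13.6%, all on both strands.

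A further set of sequences is shown because 2 members with the lowest fold changes, GMNN and MCM10, hold it. An siRNA can lower transcripts other than its target where their 3′ UTR pairs with bases 2 to 8 of its guide strand (the seed). The site of the siRNA in the FSCN1 transcript, on the sense strand and with the bases that pair with the seed in capitals, and the matches in the annotated 3′ UTRs of GMNN and MCM10 were as follows.
FSCN1 siRNA site: gagccttatttCTCTGGAa
GMNN, from base 92 of the 3′ UTR, with 10 bases on either side: ataatgccaaCTCTGGAatcaaatttc
MCM10, from base 46 of the 3′ UTR, with 10 bases on either side: cctcctgtgaCTCTGGAaagcaaagga

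In both genes the match is followed by A, the base that stands opposite the first base of a guide. A match of any kind was present in 4 of the 49 members (8.16%), namely GMNN, MCM10, ORC2 (with 2 matches) and GINS4. Over all protein-coding genes tested the share was 17.7%. A match followed by A was present in GMNN and MCM10 alone (4.08% of members), against 6.21% of those genes.

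FSCN1 itself had deposited values of 44.98, 47.24 and 45.99 FPKM (fragments per kilobase of transcript, scaled to the mapped fragments of the library) in NC replicates 1 to 3 and 4.46, 2.82 and 3.19 FPKM in siFSCN1 replicates 1 to 3. Its log2 fold change was -3.89 with an SE of 0.09 (edgeR quasi-likelihood test, adjusted p = 8.1e-16), in the direction of the labels. The 6 libraries held between 27967301 and 36560919 counts. Of the 5 epithelial markers examined (KRT8, KRT18, KRT7, EPCAM and CDH1) all had at least 1 FPKM and none of the 3 endothelial or 4 fibroblast markers reached 1 FPKM in any library. The summed FPKM of the epithelial list was between 3103 and 3482 in NC and between 1752 and 2106 in siFSCN1. This sum was carried by the keratins KRT18 (log2 fold change -0.99), KRT8 (-0.88) and KRT7 (-1.19), whereas the adhesion genes CDH1 (1.35, from 9.23 to 26.4 FPKM on average) and EPCAM (0.29) were higher. CD14 was the one immune marker above 1 FPKM, and the summed FPKM of that list was between 2.87 and 3.07 in NC and between 3.97 and 4.86 in siFSCN1. The part of these shifts in the replication genes was not tested.

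The comparison asked how replication and nucleotide synthesis transcripts stood in silenced cells against control cells. Of the 49 members, 44 were lower in siFSCN1, 1 was higher (POLE), and 4 (ORC3, ORC5, RFC1 and RPA1) did not pass an adjusted p of 0.05. Over all 17076 genes tested, 33.2% were lower and 35.1% were higher at the same threshold. Since abundant genes were lower more often than rare ones, a closer background is the 5318 genes with a mean of at least 5 FPKM, of which 59.1% were lower. At that level stood 35 members, of which 33 were lower. The median log2 fold change of the 49 members was -0.63, or 64.8% of the NC level, against 0.03 over all genes tested and -0.22 over the genes of at least 5 FPKM. In bulk RNA, fewer cells in S phase and less of a transcript per cell cannot be told apart.

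Most of the falls were moderate. At least 2-fold lower were 7 members, GMNN, MCM10, MCM7, MCM6, GINS2, CDC45 and RFC5, against 4.85% of all genes tested, and no member was at least 2-fold higher, against 11.7%. Under upper quartile scaling, library totals or limma on either FPKM scale the 2-fold lower members were 3, namely GMNN, MCM10 and MCM7. Of the other lower members, 27 had a log2 fold change between -0.5 and -1 and 10 a smaller one. The members together took between 4224 and 4331 CPM (unscaled counts as a share of the library's total) in the NC libraries and between 2964 and 3029 in the siFSCN1 libraries. The difference of each library from the NC mean was taken in log2 CPM scaled by the TMM method, which corrects for library composition. On this scale the median member lay at -0.63, -0.68 and -0.63 in siFSCN1 replicates 1, 2 and 3. In each NC library it lay within 0.01 of zero. The scaled counts did not overlap between the groups for 46 members, a separation seen in 71.3% of all genes tested.

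**Figure D1:**
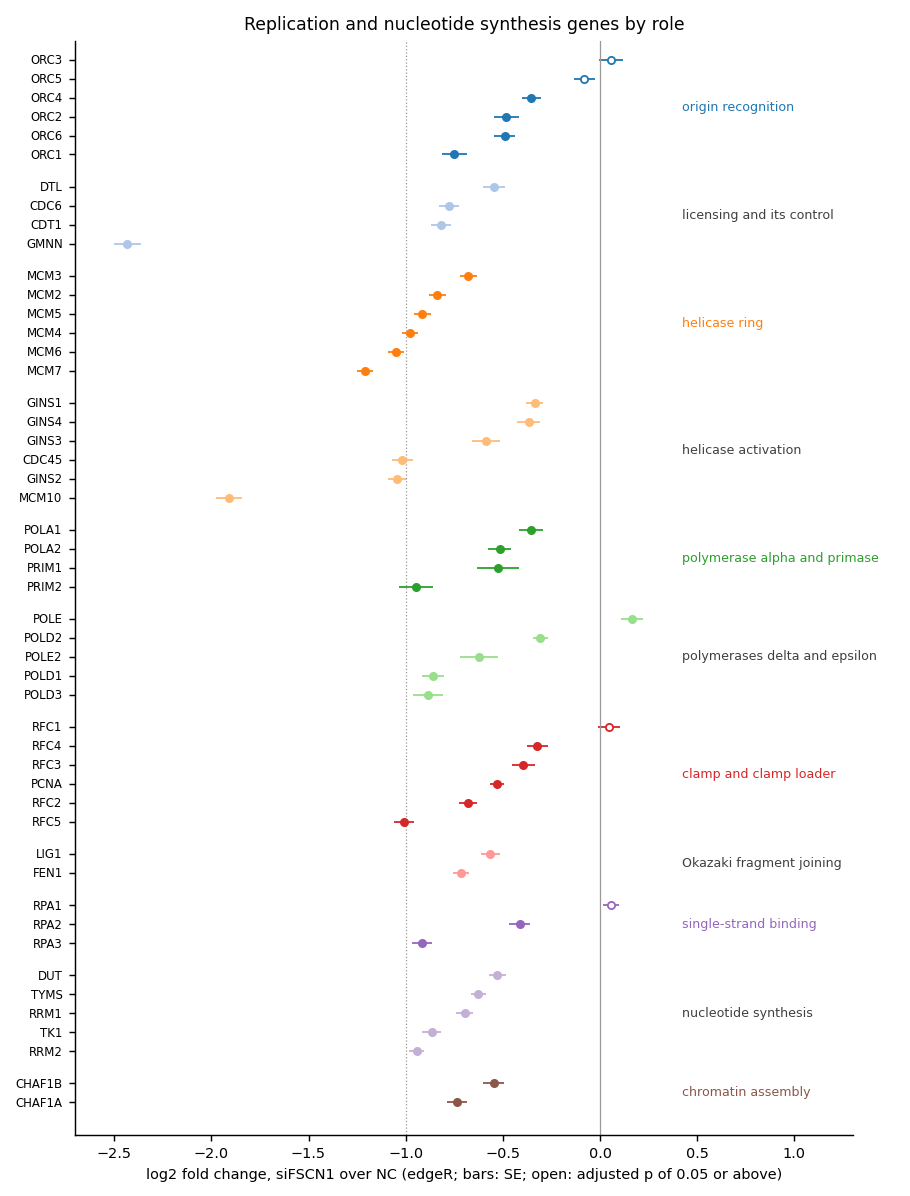
Log2 fold change (siFSCN1 over NC, edgeR) of each of the 49 members, grouped by role, with bars for the SE and a dotted line at a 2-fold fall. Filled points passed an adjusted p of 0.05; GMNN (-2.43) and MCM10 (-1.91) stand apart from the other members, and POLE (0.17) is the filled point to the right of zero.

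Of the origin recognition complex, 4 of 6 subunits were lower, and 2 did not pass the threshold. ORC1, the subunit whose level is cell cycle regulated, had values of 7.12, 6.97 and 7.11 FPKM in NC and 4.57, 4.39 and 5.19 FPKM in siFSCN1, so that every silenced library lay below every control library. Its log2 fold change was -0.75 (SE 0.07, adjusted p = 9.6e-09). ORC6 (-0.49), ORC2 (-0.48) and ORC4 (-0.35) were also lower on the log2 scale. ORC3 had 4.38, 4.25 and 3.95 FPKM in NC and 4.72, 5.01 and 4.92 FPKM in siFSCN1. The FPKM values are not corrected for library composition. In CPM scaled by the TMM method, which corrects for composition (scaled CPM), the ORC3 groups overlapped, at 22.8, 21.9 and 20.2 against 21.4, 23.3 and 22.6, and its log2 fold change of 0.06 had an adjusted p of 0.44. ORC5 had a log2 fold change of -0.08 (adjusted p = 0.21). In FPKM the order of the subunits moved. ORC6 was the highest in each NC library (7.6, 8.55 and 8.0 FPKM), and ORC5 in each siFSCN1 library (8.10, 8.08 and 7.20 FPKM), while ORC4 was the lowest in all 6. FPKM is divided by transcript length, so orders of genes in FPKM, here and below, also rest on the gene model used. In scaled CPM, which is not divided by length, ORC4 averaged 40.1 in NC, above ORC3 at 21.6.

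Licensing factors and their control genes were lower in 4 of 4 cases, and their median log2 fold change was -0.80. GMNN (chr6:24774931-24786099 in GRCh38, plus strand), whose product geminin binds CDT1 and blocks relicensing of origins after they have fired, had 17.99, 18.18 and 19.94 FPKM in NC and 4.46, 3.55 and 3.66 FPKM in siFSCN1. It averaged 18.7 FPKM ± 1.08 (SD, n = 3) in control cells and 3.89 FPKM ± 0.497 (SD, n = 3) in silenced cells. The silenced libraries thus stood at 18.5% of the control level in scaled counts, a log2 fold change of -2.43 (SE 0.07, adjusted p = 3.9e-15) and the lowest of the 49. CDT1, the partner that geminin inhibits, had a log2 fold change of -0.82, and CDC6, the ATPase that loads the helicase with CDT1, one of -0.78. DTL, the receptor through which the CRL4 ubiquitin ligase marks CDT1 for destruction in S phase, changed the least of the role, from 5.64, 6.37 and 6.06 FPKM in NC to 4.46, 4.49 and 4.93 FPKM in siFSCN1 (log2 fold change -0.55, SE 0.06, adjusted p = 1.4e-07).

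The helicase ring was lower in 6 of 6 subunits. Its median log2 fold change of -0.95 was the lowest of the 11 roles before any adjustment for abundance. MCM7 (chr7:100092233-100101940, minus strand), which the study named after choosing it on these libraries, had 72.17, 74.42 and 73.30 FPKM in NC and 38.18, 34.00 and 34.63 FPKM in siFSCN1. Its values in the silenced libraries stood at 43.3% of the control level in scaled counts (log2 fold change -1.21, SE 0.04, adjusted p = 2.4e-14). MCM6 (-1.05), MCM4 (-0.98), MCM5 (-0.91) and MCM2 (-0.84) followed. MCM3 changed the least, from 27.41, 28.79 and 27.93 FPKM in NC to 19.70, 18.94 and 20.36 FPKM in siFSCN1 (log2 fold change -0.68, SE 0.04, adjusted p = 1.2e-10). The ring carries the subunits in equal number, but their transcripts were not equal in FPKM. MCM7 was the highest in all 6 libraries. It stood 3.61, 3.47 and 3.59 times above the lowest subunit in NC replicates 1 to 3 and 2.90, 2.81 and 2.92 times in siFSCN1 replicates 1 to 3. MCM2, MCM5 and MCM6 exchanged the lowest place between libraries. AP4M1 overlaps exons of MCM7 on the opposite strand, and the strand setting of the counting was not stated.

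Factors that join or activate the ring were lower in 6 of 6 cases, with a wide spread. MCM10 (chr10:13161558-13211110, plus strand), which is needed for the loaded helicase to unwind DNA, had 4.99, 5.06 and 5.06 FPKM in NC and 1.65, 1.35 and 1.51 FPKM in siFSCN1. It stood at 26.6% of the control level in scaled counts (log2 fold change -1.91, SE 0.07, adjusted p = 4.3e-14). CDC45 (-1.02) and GINS2 (-1.04) were each about 2-fold lower. The other GINS subunits changed less, GINS3 by -0.59, GINS4 by -0.37 and GINS1 by -0.34 on the log2 scale. GINS1 had 18.05, 17.92 and 18.27 FPKM in NC and 15.86, 16.28 and 16.07 FPKM in siFSCN1 (SE 0.04, adjusted p = 1.7e-06), so that the 4 subunits of this complex did not move by an equal amount. The order of the GINS transcripts in FPKM, with GINS3 lowest and GINS1 highest, was the same in all 6 libraries.

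GMNN and MCM10 are also the 2 members with a seed match followed by A. Among the 13366 protein-coding genes tested, genes with such a match had a median log2 fold change of -0.21 (830 genes), genes with any match one of -0.12 (2367 genes), and genes with no match one of -0.00 (10999 genes). These groups also differed in 3′ UTR length, with medians of 3302, 2833 and 1092 bases. The other 2 members with a match lay above the median of the list, ORC2 at -0.48 and GINS4 at -0.37. Without the 4 members that hold a match, 40 of 45 members were lower and 5 were at least 2-fold lower, and their median was -0.63. The part of the siRNA's seed in the low GMNN and MCM10 values was not tested.

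**Figure D2:**
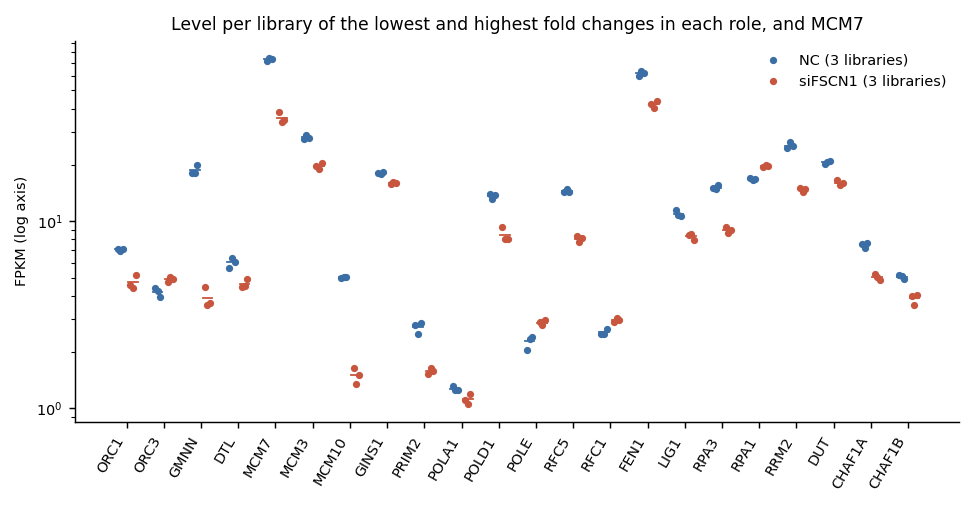
FPKM in each library (log axis) of the members with the lowest and highest log2 fold change in each role, and MCM7. In polymerases delta and epsilon POLD1 (-0.86) is drawn in place of POLD3 (-0.88), the lowest of that role. Points are libraries, short lines the means of 3, and NC stands left of siFSCN1 for each gene. GMNN, MCM10 and MCM7 have the widest gaps, and ORC3, POLE, RFC1 and RPA1 lie higher in siFSCN1 on this scale, which is not corrected for library composition.

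Polymerase alpha and its primase, which begin every new strand with an RNA-DNA primer, were lower in 4 of 4 subunits with a median log2 fold change of -0.52. PRIM2, the large primase subunit, had 2.80, 2.51 and 2.87 FPKM in NC and 1.53, 1.65 and 1.58 FPKM in siFSCN1 (log2 fold change -0.95, SE 0.09, adjusted p = 2.4e-08). The small primase subunit PRIM1 (-0.53) and POLA2 (-0.52) lay between. The catalytic subunit POLA1 had 1.32, 1.25 and 1.25 FPKM in NC and 1.11, 1.05 and 1.19 FPKM in siFSCN1 (log2 fold change -0.35, SE 0.06, adjusted p = 5.5e-05). These were the lowest of the 49 genes in FPKM. In scaled CPM, which is not divided by transcript length, POLA1 averaged 24.9 in NC, above PRIM1 at 11.5. With limma on log2(FPKM + 0.1) the POLA1 value was -0.18, with an adjusted p of 0.0999. PRIM1 and POLA2 share exonic bases with other gene models on the same strand.

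Of the members in polymerases delta and epsilon, 4 subunits were lower and 1 was higher. POLE (chr12:132623753-132687376, minus strand), the catalytic subunit of polymerase epsilon, had 2.06, 2.36 and 2.42 FPKM in NC and 2.88, 2.78 and 2.96 FPKM in siFSCN1. Its scaled CPM was 43.95, 49.87 and 50.71 in NC and 53.4, 53.0 and 55.8 in siFSCN1, a narrow separation in which NC replicate 1 lay lowest. The log2 fold change was 0.17 (SE 0.06, adjusted p = 0.016). This call depended on the libraries and the method used. Without NC replicate 1 the value was 0.09 (adjusted p = 0.146), without siFSCN1 replicate 3 it was 0.13 (adjusted p = 0.0681), and DESeq2 gave 0.14 (adjusted p = 0.0784). POLE2, the second subunit of the same enzyme, was lower (-0.62). Of polymerase delta, POLD3 (-0.88) and the catalytic POLD1 (-0.86) were lower, and POLD2 less so (-0.31). POLD3, the most negative of the role, had 3.05, 3.25 and 3.15 FPKM in NC and 1.95, 1.77 and 2.01 FPKM in siFSCN1 (SE 0.08, adjusted p = 6.9e-09). POLD1 had 14.02, 13.20 and 13.73 FPKM in NC and 9.29, 8.01 and 8.02 FPKM in siFSCN1.

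The clamp PCNA, which tethers the polymerases to DNA, was the most abundant member, at 240.21, 235.34 and 245.26 FPKM in NC and 186.28, 182.52 and 191.99 FPKM in siFSCN1. Its log2 fold change was -0.53 (SE 0.04, adjusted p = 3.4e-10). The clamp loader RFC is built of a large subunit, RFC1, and 4 small ones. The small subunits were lower, RFC5 by -1.01, RFC2 by -0.68, RFC3 by -0.39 and RFC4 by -0.32 on the log2 scale. RFC5 had 14.41, 14.84 and 14.27 FPKM in NC and 8.34, 7.78 and 8.12 FPKM in siFSCN1 (SE 0.05, adjusted p = 4.4e-12). RFC1 had 2.50, 2.50 and 2.67 FPKM in NC and 2.88, 3.04 and 2.97 FPKM in siFSCN1. In scaled CPM its groups overlapped, at 21.3, 21.2 and 22.4 against 21.4, 23.2 and 22.4, and the log2 fold change of 0.05 had an adjusted p of 0.49.

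Okazaki fragments are trimmed by the flap endonuclease FEN1 and sealed by the ligase LIG1, and both were lower. FEN1 had 59.71, 63.14 and 62.18 FPKM in NC and 42.41, 40.34 and 43.79 FPKM in siFSCN1 (log2 fold change -0.71, SE 0.04, adjusted p = 3.6e-11). LIG1 had 11.46, 10.76 and 10.64 FPKM in NC and 8.45, 8.55 and 7.94 FPKM in siFSCN1 (log2 fold change -0.56, SE 0.05, adjusted p = 1.3e-08). FEN1 shares exonic bases with FADS2 on the same strand.

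The subunits of replication protein A, which coats single-stranded DNA as a trimer, did not move alike. RPA3, the smallest, had 15.00, 14.85 and 15.53 FPKM in NC and 9.33, 8.66 and 9.00 FPKM in siFSCN1 (log2 fold change -0.92, SE 0.05, adjusted p = 1.4e-11). RPA2 was lower by -0.41 on the log2 scale. RPA1, the largest and the main DNA-binding subunit, had 16.97, 16.55 and 16.91 FPKM in NC and 19.37, 19.85 and 19.64 FPKM in siFSCN1. Its scaled CPM overlapped, at 118, 114 and 116 in NC and 118, 124 and 121 in siFSCN1, and the log2 fold change of 0.06 had an adjusted p of 0.22. In FPKM the highest of the 3 transcripts was RPA2 in every NC library and RPA1 in every siFSCN1 library. In scaled CPM, which is not divided by transcript length, RPA1 was the highest in every library of both groups.

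The nucleotide synthesis enzymes were lower in 5 of 5 cases with a median log2 fold change of -0.70. RRM2, the ribonucleotide reductase subunit made in S phase, had 24.52, 26.34 and 25.14 FPKM in NC and 15.10, 14.28 and 14.95 FPKM in siFSCN1 (log2 fold change -0.94, SE 0.04, adjusted p = 3.1e-13). Its partner RRM1 stood at -0.70, the thymidine kinase TK1 at -0.87 and the thymidylate synthase TYMS at -0.63. DUT, the enzyme that removes dUTP and so keeps uracil out of DNA, changed the least, from 20.21, 20.75 and 21.06 FPKM in NC to 16.55, 15.60 and 16.09 FPKM in siFSCN1 (log2 fold change -0.53, SE 0.04, adjusted p = 4.1e-09). DUT has 8 named pseudogenes and PCNA, RPA2 and RRM2 have 3 each, and only reads with a single place of alignment were counted for them.

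Of chromatin assembly factor 1, which places histones behind the fork, CHAF1A had 7.56, 7.23 and 7.61 FPKM in NC and 5.24, 5.01 and 4.85 FPKM in siFSCN1 (log2 fold change -0.74, SE 0.05, adjusted p = 4.5e-10). CHAF1B had 5.15, 5.09 and 4.90 FPKM in NC and 3.99, 3.58 and 4.04 FPKM in siFSCN1 (log2 fold change -0.55, SE 0.05, adjusted p = 6.2e-08). Both were below every control value in each silenced library.

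Set side by side, the median log2 fold changes of the roles ran from -0.95 for the helicase ring, over -0.80 for helicase activation and for licensing, -0.70 for nucleotide synthesis, -0.64 for Okazaki fragment joining and for chromatin assembly, -0.62 for polymerases delta and epsilon, -0.52 for polymerase alpha and primase and -0.46 for clamp and clamp loader, to -0.42 for origin recognition and -0.41 for single-strand binding. Every one of these medians lay below the 0.03 of all genes tested. They were not adjusted for abundance. The spread within roles also differed. Origin recognition ran from -0.75 to 0.06 and polymerases delta and epsilon from -0.88 to 0.17, whereas the ring stayed between -1.21 and -0.68. The differences between roles were not tested, since members of a role are not replicates.

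**Figure D3:**
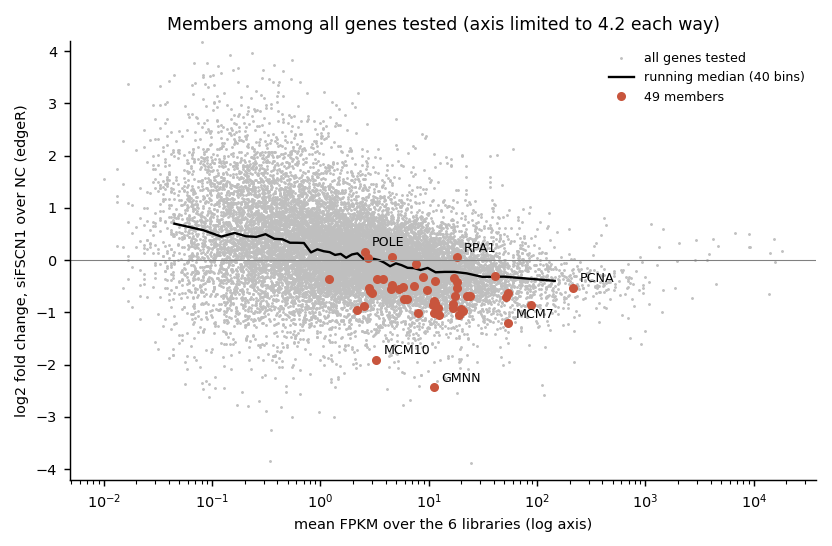
Log2 fold change (siFSCN1 over NC) against mean FPKM over the 6 libraries (log axis) for all genes tested (grey; genes beyond 4.2 on the log2 scale or under 0.01 FPKM are not drawn), with the median in 40 bins of equal size (line) and the 49 members in colour. The line falls from left to right, and most members lie below it.

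Since abundant transcripts tended to lower fold changes, each member was also set against the value that the trend over all genes gave for its abundance. The trend values of the 49 members lay between -0.29 and 0.14. After subtraction the median of the members was -0.51, and 44 of 49 lay below the trend. POLE (0.30) and RPA1 (0.26) stood furthest above it, and RPA1 passed the threshold on this scale (adjusted p = 1.67e-05). PCNA moved from -0.53 to -0.24 and POLD2 from -0.31 to -0.07, the latter with an adjusted p of 0.116. At their abundance the trend itself stood at -0.29 and -0.24. The order of the roles also moved on this scale, and helicase activation rather than the helicase ring had the lowest median. Values ran from -1.90 (MCM10) to -0.15 (GINS1) in helicase activation and from -0.94 (MCM7) to -0.48 (MCM3) in the ring.

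Ratios of pairs of members within a library do not depend on how libraries were scaled. Among 10 pairs chosen from common complexes or steps, the ratios of FPKM did not overlap between the groups in 7 pairs and overlapped in 3. The share over pairs of genes in general was not worked out. Taken singly, 71.3% of all genes tested had scaled counts that did not overlap. With 3 against 3 libraries the exact two-sided permutation test cannot give a p under 0.1, which after adjustment over the 10 pairs was 0.143 for each of the 7, so none passed the threshold. The largest was CDT1 over GMNN, the ratio of the licensing factor to its inhibitor. It was 0.790, 0.775 and 0.698 in NC and 2.07, 2.56 and 2.34 in siFSCN1, a shift of 3.07-fold. POLE2 over POLE fell from 1.63, 1.51 and 1.45 to 0.885, 0.935 and 0.824, and RFC2 over RFC1 from 10.5, 10.5 and 9.89 to 6.6, 6.0 and 6.09.

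The remaining shifts were smaller. MCM7 over MCM2 was 3.61, 3.47 and 3.54 in NC and 2.90, 2.65 and 2.66 in siFSCN1, and RRM2 over RRM1 was 1.19, 1.24 and 1.24 in NC and 1.03, 1.03 and 1.04 in siFSCN1. On the log2 scale TYMS over TK1 differed by 0.24 and CHAF1A over CHAF1B by -0.18. The pairs that overlapped were ORC1 over ORC2 (-0.28, exact permutation p = 0.2), ORC6 over ORC2 (-0.01, exact permutation p = 0.9) and POLD1 over POLD3 (0.03, exact permutation p = 0.8). The SD of the log2 ratio of POLD1 to POLD3 was 0.09 in NC and 0.13 in siFSCN1, larger than the difference between the groups.

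**Figure D4:**
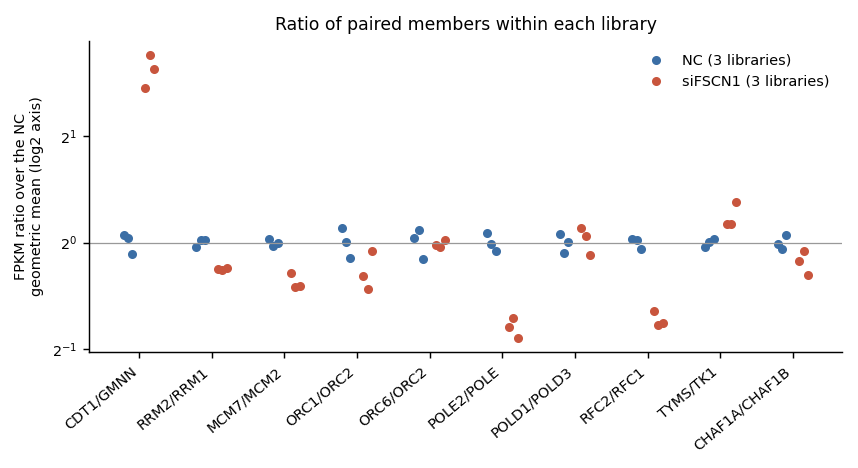
Ratio of the FPKM of 2 members within each library, divided by the geometric mean of the NC ratios (log2 axis), for 10 pairs. CDT1 over GMNN lies above NC and POLE2 over POLE and RFC2 over RFC1 lie below it in all 3 siFSCN1 libraries, while ORC6 over ORC2 and POLD1 over POLD3 overlap.

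Genes beside the 49 in the same processes were described from lists of their own. Their counts of lower genes stand beside 33.2% of all genes tested and 59.1% of genes with a mean of at least 5 FPKM. Of 37 other fork and origin factors, 36 were tested, of which 23 were lower and 3 were higher, with a median log2 fold change of -0.35. RNASEH2A was not among the genes tested. POLD4 was the highest of the tested genes of this list, at 0.35. UHRF1, which brings the maintenance methyltransferase to newly made DNA, was the lowest at -1.26, followed by CLSPN, the mediator of the replication checkpoint, at -0.93 and POLE4, a small subunit of polymerase epsilon, at -0.75. Of 33 other nucleotide enzymes, 26 were lower and 3 were higher, and their median was -0.48. The lowest of these were TK2, the mitochondrial thymidine kinase, at -1.24 and UMPS, which completes uridine monophosphate, at -1.16.

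Of 17 genes of G1/S transcription control, 13 were lower and 3 were higher, with a median of -0.38. Lower were 33.2% of all genes tested and 59.1% of genes with a mean of at least 5 FPKM. E2F2 (-1.15) and MYBL2 (-1.14), which are themselves transcribed at the G1/S transition, and RB1 (-0.98), the repressor of E2F factors, were the lowest. E2F3 was higher (0.64). Within the 43 members that had a promoter entry, those with the E2F letters had a median log2 fold change of -0.59, and 19 of 21 were lower. Those without had a median of -0.69, and 19 of 22 were lower. Lower and other members were thus found on either side of this division. MCM10 and RPA1, at opposite ends of the list, both had none of these exact letters in this window. ORC3 and POLE, which were not lower, both had a match. Near forms were not counted, such as TTTGGCGG, which the MCM10 promoter holds, so the division rests on the letters chosen.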

How the data were processed

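Raw counts for 30230 genes and FPKM values for 29899 of them were deposited by the authors. They trimmed the reads and aligned them to GRCh38 (HISAT2 in the study's methods, TopHat2 in the submitters' processing notes), and used uniquely mapped reads. The methods and the labels also name different stranded library kits. How strand was set in the counting, with which program and on which annotation is not given in the sources used here.

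Groups came from the sample titles. The deposited counts were filtered with filterByExpr, which left 17076 genes including all 49 members, scaled by TMM (factors from 0.933 to 0.942 in NC and from 1.05 to 1.08 in siFSCN1) and tested with edgeR 4.0.16 (quasi-likelihood, no covariate, R 4.3.3), with Benjamini-Hochberg adjustment over all genes tested. A gene was called at an adjusted p under 0.05, and 2-fold calls also needed a fold change of at least 2. SEs were derived from the fold change and its F statistic. Because the deposited FPKM is scaled to library depth without the TMM factor, FPKM ratios lie above the edgeR fold changes. The abundance trend is a smooth curve of log2 fold change on mean log2 CPM over all genes tested. Same-numbered libraries did not deviate together (correlations of -0.03, 0.04 and -0.08), so replicate numbers were not used as pairs. Chi-square values per degree of freedom were from 3.10 to 8.14 between libraries of a group and from 107 to 131 between groups, so no library was a resequencing of another. These values cannot tell separate libraries of 1 RNA sample or culture from libraries of separate cultures. The fit was tested on simulated data with known answers.

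Promoters came from RefSeq and gene models from GENCODE release 44 on GRCh38. The last 40 bases of 54 of 57 promoter sequences of members lay in a GENCODE transcript of that gene. Members with exonic overlap numbered 7 on the same strand and 21 on the opposite strand. The siRNA site was located in the FSCN1 transcript by the position of the published siRNA, and seed matches were counted in the 3′ UTR of the canonical transcript. They were looked at after the GMNN and MCM10 values had been seen.

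The members and gene lists were chosen with earlier results of these data known. Log2 fold changes are given for each member, and values per library for the lowest and highest fold change of each role, for MCM7, for members that rose and, added after their values were seen, for PCNA and POLD1. The other lists name at most 3 genes each by size of change, and E2F3 and POLD4 were added because they rose. The value of 1 gene that this rule names is not reported here. Alternatives were RLE and upper quartile scaling, library totals, DESeq2 1.42.0, a filter of only 1 count in all, a filter on 1 CPM in 3 libraries with 10 counts on average (stricter filter), a replicate block, leaving out each library, limma 3.58.1 on log2(FPKM + 0.1) and log2(FPKM + 1), removal of the abundance trend, an unadjusted p and glmTreat against 2-fold. Leaving out members with a seed match was chosen after seeing the data.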

Additional observations from a re-analysis of the deposited data

How the results depend on the processing

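The number of lower members was 43 with limma on either FPKM scale (without POLA1) and with the trend removed (without POLD2), and 44 without each library in turn and under the other alternatives run on all 49. Without the 4 members that hold a seed match it was 40 of 45. The glmTreat fit was run for the 2-fold counts only. Lower by at least 2-fold were 3 members with upper quartile scaling, library totals, limma on either FPKM scale, the trend removed or glmTreat (GMNN and MCM10 in each, with MCM7 in all but the trend removal, where PRIM2 took its place), and from 6 to 8 without single libraries. Higher members numbered 4 with upper quartile scaling, library totals and limma on either FPKM scale (ORC3, POLE, RFC1 and RPA1), 2 with the trend removed (POLE and RPA1), 0 with DESeq2, and from 0 to 1 without single libraries. These scalings also moved the median of all genes, by 0.12 with upper quartile scaling, 0.19 with library totals and 0.14 with limma on log2(FPKM + 0.1). With library totals 22.4% of all genes were lower and 46.7% were higher.

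The median of the 49 members minus that of all genes tested was -0.66. It was -0.77 with no filter beyond 1 count and with DESeq2, -0.62 with the stricter filter, -0.63 and -0.53 with limma on log2(FPKM + 0.1) and log2(FPKM + 1), and -0.48 with the trend removed. Without single libraries it ran from -0.69 to -0.66, and FSCN1 from -4.11 to -3.77. ORC5 changed sign with upper quartile scaling (0.038), library totals (0.11), limma on log2(FPKM + 0.1) (0.083) and log2(FPKM + 1) (0.074) and the trend removed (0.0017), and ORC3 without NC replicate 3 (range without single libraries -0.0012 to 0.086), none of them past the threshold. The ratio of ORC6 to ORC2 changed sign without NC replicate 1, NC replicate 2 or siFSCN1 replicate 2 (range -0.093 to 0.043), and that of POLD1 to POLD3 without NC replicate 2 or siFSCN1 replicate 1 (range -0.028 to 0.0996). Pairs whose ratios did not overlap numbered from 7 to 9 without single libraries. With the replicate block 44 members were lower, 7 by at least 2-fold, and 1 was higher. Of the 49 members, 42 kept their direction and their side of the threshold under every alternative run for single genes (all but glmTreat and the unadjusted p). The causes of these changes were not tested.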
